A study of Mus musculus with 6 samples.

Results

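The matrilins, cartilage oligomeric matrix protein (COMP) and the thrombospondins are secreted matrix proteins, and their 9 genes were followed in growth plate cartilage with and without deletion of *Hnrnpk*. The members were chosen by gene symbol: the 4 matrilins *Matn1* to *Matn4*, *Comp*, and *Thbs1* to *Thbs4*, out of 15803 genes listed. All 9 members were in the table and all 9 passed the filter on low levels, a mean level of 1 CPM or more (counts scaled to the total of each library), which left 12155 genes to test. Poly(A) RNA of the growth plate of mouse embryos at E18.5 was sequenced in 3 WT and 3 CKO libraries. The CKO embryos were *Col2a1-Cre;Hnrnpk fl/fl* and their WT littermates *Hnrnpk fl/fl* without Cre, so that both genotypes carried the floxed allele, in which *loxP* sites surround several coding exons. The *Col2a1* promoter drives the Cre in chondrocytes, and embryos of both sexes were used. Nothing in the labels says whether the 3 libraries of a genotype came from separate embryos, so the p-values measure the spread between these libraries, which may be technical. The question here was how the genes of this adapter layer of the cartilage matrix differed between the genotypes.

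Matrilins are modular proteins that assemble into oligomers through a coiled coil and link collagen fibrils to each other and to proteoglycans. COMP is the fifth member of the thrombospondin family and forms pentamers that bind collagens II and IX, as well as matrilins. Mutations of COMP, matrilin-3 and the chains of collagen IX cause related forms of epiphyseal dysplasia in people. Thrombospondins 1 and 2 form trimers that act mostly on cells, through receptors such as CD36 and CD47, whereas thrombospondins 3 and 4 are pentamers like COMP.

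The libraries held between 1153871 and 1454094 reads assigned to genes, so that 1 read was worth 0.688 to 0.867 CPM and 3 reads, the limit that a count of 0 allows, came to 2.06 to 2.60 CPM. These limits cover counting error only. The level of *Hnrnpk*, read over the whole gene rather than over the floxed exons, was 842, 955 and 944 CPM in the libraries labelled WT and 759, 949.9 and 780.0 CPM in those labelled CKO. The groups overlapped, with a log2 difference of -0.14 (SE 0.15, limma adjusted p = 0.622), so this gene does not separate the labels. CKO 2 and WT 3 stood apart from the others of their group. Among 6827 genes whose mean reached 10 CPM, 10.4% in CKO 2 and 6.15% in WT 3 lay more than 2-fold from both other libraries, against 0.864% to 1.26% in the remaining 4. The 7 chondrocyte markers summed to 17274 to 21093 CPM in WT and 4974 to 5563 CPM in CKO. The largest part in WT was *Cnmd*, with a mean of 9616 CPM in WT and 1548 CPM in CKO, while *Hapln1* differed little (1001 and 866 CPM). Markers of hypertrophic chondrocytes summed to 468, 415 and 868 CPM in WT and 2933, 534 and 3160 CPM in CKO, most of it from *Mmp13* and *Ibsp*. Without these genes the sum was 81.9, 72.0 and 109 CPM in WT and 70.1, 73.6 and 51.1 CPM in CKO, and *Col10a1*, the defining collagen of hypertrophic cells, was highest in CKO 2 among the CKO libraries (24.8, 45.5 and 16.5 CPM). Osteoblast markers summed to 487, 544 and 708 CPM in WT and 1316, 375 and 1407 CPM in CKO, and without *Ibsp*, *Bglap* and *Bglap2* to 301 to 563 and 254 to 314 CPM. Tendon markers, of which *Scx* was near 0, summed to 615 to 909.8 CPM in WT and 232 to 417 CPM in CKO. Most of that sum was *Fmod*, which cartilage also expresses, and without it the sum was 58.0, 54.0 and 167 CPM in WT and 68.8, 65.0 and 65.0 CPM in CKO. *Tnmd* made up 146 CPM of the value in WT 3, and *Egr1* was higher in CKO (means of 4.89 CPM in WT and 20.0 CPM in CKO). Perichondrium and fibroblast markers summed to 3022 to 4844 CPM in WT and 1217 to 2051 CPM in CKO, and macrophage and osteoclast markers to 99.3 to 111 and 178 to 193 CPM. Of the latter *Cd68* rose most, from a mean of 9.09 CPM in WT to 66.5 CPM in CKO, while *Ctsk* differed little (88.3 and 99.0 CPM). Muscle markers summed to 29.3 to 127 CPM in WT and 67.8 to 79.8 CPM in CKO, epidermis markers to 17.7 to 39.1 and 31.2 to 44.8 CPM, and red cell markers to 0.725 to 5.25 and 2.06 to 28.9 CPM. Endothelial markers stayed at or near 0, between 0 and 3.38 CPM in WT and 0.688 and 1.44 CPM in CKO.

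*Matn1*, *Comp* and *Matn3* fell in CKO, and none of the other 6 members passed the test. With an adjusted p under 0.05, 3 of the 9 members were lower and 0 were higher, where 2.6% of all tested genes were lower, 3.18% were higher and 5.78% changed either way. At an unadjusted p under 0.05 in limma 4 members were lower and 1 was higher, *Thbs1*. At least 2537 of 12155 tested genes reached that level, in either direction. At an adjusted p under 0.05 edgeR and DESeq2 called 3 members lower and 0 higher. The criterion of the study was a log2 fold change beyond 1 in size with an unadjusted p under 0.05. The test behind its RNA-seq p-values is not named, so only these cut-offs were taken and applied to the limma fit used here. By this criterion *Matn1*, *Comp* and *Matn3* were lower and *Thbs1* was higher, where 5.1% and 5.3% of all genes were lower and higher. In 4 members, *Matn1*, *Matn3*, *Matn4* and *Comp*, no CKO library overlapped the WT libraries, as in 27.7% of all genes. The median log2 difference of the 9 members was -0.54, against 0.013 over all tested genes. In RNA of a whole tissue, fewer cells of a type and less RNA per cell cannot be told apart.

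**Figure D1:**
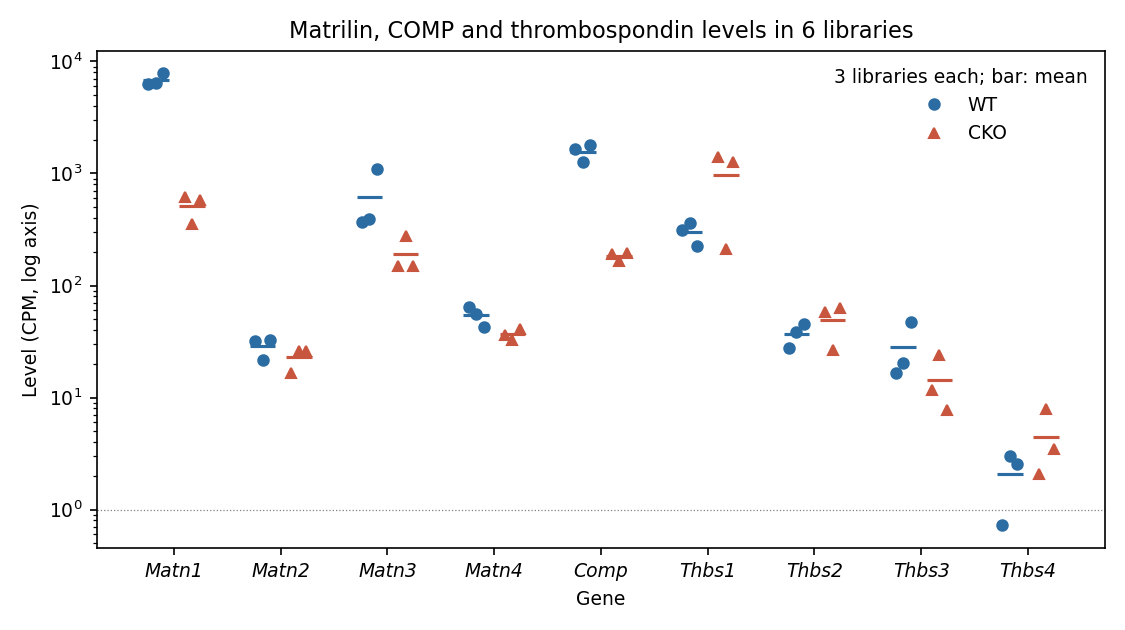
Level of the 9 members in CPM on a log axis, with circles for the 3 WT libraries, triangles for the 3 CKO libraries and a bar at each mean; the dotted line marks 1 CPM. *Matn1* and *Comp* sit in 2 separate clusters, while 1 CKO triangle of *Thbs1*, at 214 CPM, lies below every WT circle.

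A pair of promoters is shown because these belong to the matrilins that fell. They are the 300 bases around the start of *Matn1* (chr4:130944135-130944434, plus strand) and of *Matn3* (chr12:8947679-8947978, plus strand), from RefSeq on GRCm38.p6, with 250 bases before the start and 50 after it. Capitals mark matches, on either strand, to the letters of 4 motifs that were chosen with the results known: a SOX core (ACAAT or ACAAAG), a nuclear factor I (NFI) half-site (TTGGC), a GC box (GGGCGG) and a TATA box (TATAAA).
Matn1: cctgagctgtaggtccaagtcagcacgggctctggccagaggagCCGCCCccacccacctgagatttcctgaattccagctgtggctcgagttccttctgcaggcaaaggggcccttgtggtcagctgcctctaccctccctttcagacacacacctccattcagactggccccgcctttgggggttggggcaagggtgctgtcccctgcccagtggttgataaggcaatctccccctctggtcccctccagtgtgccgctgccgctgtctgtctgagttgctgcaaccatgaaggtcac
Matn3: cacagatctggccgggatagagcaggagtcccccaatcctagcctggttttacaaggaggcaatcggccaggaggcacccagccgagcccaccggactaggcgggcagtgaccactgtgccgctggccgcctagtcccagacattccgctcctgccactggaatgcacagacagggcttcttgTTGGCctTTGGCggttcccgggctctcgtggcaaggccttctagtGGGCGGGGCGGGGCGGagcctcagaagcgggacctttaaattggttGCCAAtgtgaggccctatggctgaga
The *Matn1* window held 1 GC box, and the *Matn3* window held 3 NFI half-sites and 3 GC boxes that overlap each other by their end letters. Of 32851 promoters this long, 42.9% held at least 1 SOX core, 46.7% an NFI half-site, 35.7% a GC box and 13.6% a TATA box. A single NFI half-site or GC box is therefore common, and the share of promoters with 3 was not counted. The G and C content was 61.3% in *Matn1* and 62.7% in *Matn3*, against a median of 52.7%. Promoters of *Matn4*, *Thbs2*, *Thbs3* and *Thbs4* were also matched, and those of *Matn2*, *Comp* and *Thbs1* were not used here. A match is a description of the letters and says nothing about binding.

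*Matn1* (ENSMUSG00000040533, chr4:130944385-130955475 on GRCm38), which encodes cartilage matrix protein, stood at 6283, 6410 and 7830 CPM in WT and 612, 356 and 577 CPM in CKO. Every WT library was far above every CKO library, and CKO 2 was the lowest. The mean dropped from 6841 ± 859 (SD, n = 3) to 515 ± 139 CPM (SD, n = 3), a 13.3-fold lower level. The log2 difference was -3.76 (SE 0.21, 95% interval -4.23 to -3.30, limma adjusted p = 2.26e-05). The gene ranked 7 among all genes by its WT level and 343 by its CKO level. The WT values rest on 26479 reads and the CKO values on 2049.

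*Matn3* (ENSMUSG00000020583, chr12:8947929-8972028), the matrilin of growing cartilage that forms mixed oligomers with matrilin-1, was at 369, 392 and 1105 CPM in WT against 149, 274 and 148 CPM in CKO. No library overlapped the other group, yet WT 3 stood well above WT 1 and WT 2, and CKO 2 lay above the other CKO libraries. The mean fell from 622 ± 419 to 191 ± 72.5 CPM (SD, n = 3 each), with a log2 difference of -1.57 (SE 0.39, limma adjusted p = 0.0438). The call was lost on leaving out any library other than CKO 2: without WT 3 the log2 difference was -1.06 (limma adjusted p = 0.0560). Without WT 1, WT 2, CKO 1 and CKO 3 in turn it was -1.85, -1.80, -1.42 and -1.42, with limma adjusted p-values of 0.0777, 0.0879, 0.142 and 0.156.

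*Matn4* (ENSMUSG00000016995, chr2:164389393-164405160, minus strand), a matrilin found in many tissues, was at 64.5, 55.5 and 42.2 CPM in WT against 36.4, 32.5 and 40.7 CPM in CKO. The groups did not overlap, but the lowest WT and the highest CKO library were close. The log2 difference was -0.54 (SE 0.22, unadjusted p = 0.0366 in limma, adjusted p = 0.199). *Matn2* (ENSMUSG00000022324, chr15:34306677-34436273), a matrilin of many connective tissues, was at 31.9, 21.8 and 32.9 CPM in WT against 16.5, 26.0 and 26.0 CPM in CKO. Its groups overlapped, with a log2 difference of -0.33 (95% interval -0.95 to 0.29, limma adjusted p = 0.542).

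*Comp* (ENSMUSG00000031849, chr8:70373558-70382066) was at 1642, 1253 and 1809 CPM in WT against 191, 165 and 193 CPM in CKO. The 3 CKO libraries lay close together and all were far below WT. The mean dropped from 1568 ± 285 to 183 ± 16.0 CPM (SD, n = 3 each), 8.57-fold lower, and the log2 difference was -3.08 (SE 0.17, 95% interval -3.46 to -2.70, limma adjusted p = 2.26e-05). *Comp* had the lowest p-value of all tested genes and *Matn1* the next, and CKO 2 did not stand apart for *Comp* as it did for *Matn3* and *Thbs1*.

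*Thbs1* (ENSMUSG00000040152, chr2:118111876-118127133), an inhibitor of blood vessel growth and activator of latent TGF-β, was at 316, 362 and 226 CPM in WT. In CKO it was at 1400, 214 and 1270 CPM. CKO 1 and CKO 3 were above every WT library, while CKO 2 was below all of them. The mean was 301 ± 69.3 CPM in WT and 961 ± 651 CPM in CKO (SD, n = 3 each), with a log2 difference of 1.29 (SE 0.58, 95% interval 0.014 to 2.57, limma adjusted p = 0.230). Without CKO 2 the log2 difference was 2.17 (limma adjusted p = 8.68e-05), so the call turned on that library. The markers *Mmp13*, *Ibsp*, *Bglap*, *Bglap2* and *Alpl* were likewise lowest in CKO 2 among the CKO libraries. *Col10a1* was highest there and *Col1a1* was nearly level (245, 240 and 269 CPM in CKO). *Pth1r*, lower in CKO than in WT, was also lowest in CKO 2 among the CKO libraries (39.2, 20.2 and 30.3 CPM). *Sp7*, *Mef2c*, *Dmp1* and *Ihh*, with 17, 24, 7 and 1 reads over the CKO libraries, were too low to compare. The part of these markers in the result was not tested. *Mmp13*, a collagenase of hypertrophic cells, was at 2155, 377 and 2301 CPM in CKO, and *Ibsp*, a bone matrix protein, at 708, 83.0 and 808 CPM.

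*Thbs2* (ENSMUSG00000023885, chr17:14665500-14694235, minus strand), a matricellular protein of fibroblasts and bone cells, was at 27.5, 38.3 and 45.6 CPM in WT against 58.5, 26.7 and 62.4 CPM in CKO. As in *Thbs1*, CKO 2 was the lowest CKO library, but its 37 reads did not differ from the 38 of WT 1 beyond counting error. The log2 difference was 0.33 (SE 0.33, limma adjusted p = 0.612). *Thbs3* (ENSMUSG00000028047, chr3:89215180-89226837), a pentamer expressed in skeletal tissue, was at 16.7, 20.3 and 47.3 CPM in WT against 11.7, 23.8 and 7.80 CPM in CKO. WT 3 and CKO 2 were the highest of their groups, as in *Matn3*, the groups overlapped, and the log2 difference was -0.90 (SE 0.46, limma adjusted p = 0.290). *Thbs4* (ENSMUSG00000021702, chr13:92751590-92794818, minus strand), a thrombospondin of tendon and muscle, had 1, 4 and 3 reads in WT and 3, 11 and 4 in CKO. These levels were at or near the limit of detection, and a difference could not be shown at this depth (log2 difference 0.78, SE 0.54, limma adjusted p = 0.451). Exons of *Thbs3*, *Matn4*, *Thbs1* and *Matn2* overlap a gene on the opposite strand by 318, 149, 208 and 70 bases, and the strand setting of the counting is not given in the sources used here.

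**Figure D2:**
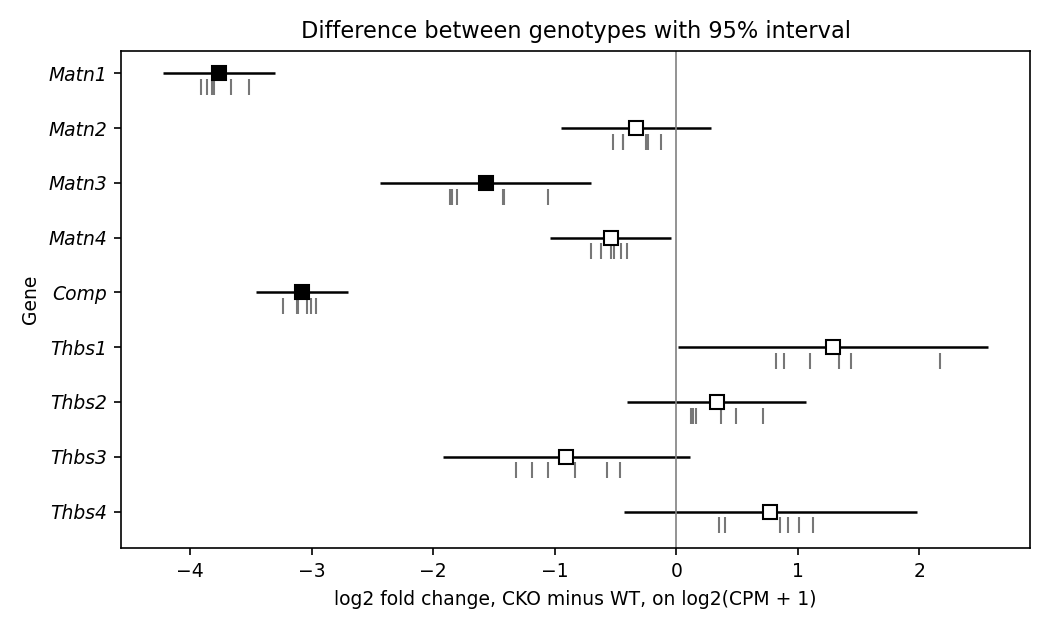
Log2 difference of CKO minus WT on log2(CPM + 1) for each member, with its 95% interval as a line, a filled square where the adjusted p was under 0.05, and grey ticks for the 6 values with 1 library left out. The ticks of *Matn1* stay between -3.91 and -3.52, while those of *Thbs1* spread from 0.82 to 2.17.

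Per kilobase of exon, the order of the members differed between the genotypes. The length used covers all annotated exons of a gene rather than the transcript expressed, so comparisons between genes depend on that choice. In WT the mean levels were 3419 CPM per kb for *Matn1*, 528 for *Comp*, 206 for *Matn3*, 49.6 for *Thbs1* and 10.5 for *Matn4*, each above the next in every library. *Matn4*, *Thbs3*, *Thbs2* and *Matn2* overlapped their neighbours in that order, and *Thbs4*, at 0.634 CPM per kb, was below *Matn2* in every library. In CKO, *Matn1* at 257 CPM per kb, *Thbs1* at 158, *Matn3* at 63.2 and *Comp* at 61.7 came first, and each range overlapped with the next among these 4, although *Matn1* was above *Thbs1* in each of the 3 libraries. *Comp* was above *Matn4*, at 7.07 CPM per kb, in every CKO library, and the ranges of the members from *Matn4* down overlapped with the next in order, although *Thbs3* was above *Thbs4* in each library.

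*Matn1* was most of the matrilin RNA in every library, at 93.1%, 93.2% and 86.9% of the summed matrilin CPM in WT and 75.2%, 51.7% and 72.9% in CKO. Its mean share was 91.1% ± 3.60 in WT and 66.6% ± 13.0 in CKO (SD, n = 3 each). The exact permutation test gave p = 0.1, two-sided, which is as low as 3 against 3 libraries allow. The summed level of the 4 matrilins was 6748, 6879 and 9010 CPM in WT and 814, 689 and 792 CPM in CKO. *Matn3* took a mean share of 7.81% in WT and 25.6% in CKO.

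*Comp* was 82.0%, 74.8% and 84.9% of the summed CPM of COMP and thrombospondins in WT and 11.5%, 37.7% and 12.6% in CKO. Its mean share was 80.6% ± 5.23 in WT and 20.6% ± 14.8 in CKO (SD, n = 3 each), with the same exact permutation p of 0.1. The share of *Thbs1* was 84.2%, 48.9% and 82.6% in CKO, so that by CPM it was the leading gene of this family in every CKO library and *Comp* in every WT library. Per kilobase of exon this did not hold for CKO 2, where *Comp* was at 55.5 and *Thbs1* at 35.2 CPM per kb, and the mean share of *Comp* was then 89.3% ± 3.15 in WT and 32.8% ± 18.8 in CKO. The summed level of the family was 2003, 1677 and 2130 CPM in WT and 1664, 437 and 1537 CPM in CKO, and CKO 2, low in both *Comp* and *Thbs1*, was far below the rest. On log2 ratios, *Comp* to *Matn1* differed by 0.68, *Matn3* to *Matn1* by 2.19 and *Thbs1* to *Comp* by 4.38, all higher in CKO. In single CKO libraries the log2 ratio of *Thbs1* to *Comp* was 2.87, 0.38 and 2.72, and the difference was 5.18 without CKO 2. That of *Matn3* to *Matn1* was 1.65 without CKO 2. Each had an exact permutation p of 0.1, which stayed at 0.1 after adjustment over the 5 shares and ratios compared.

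**Figure D3:**
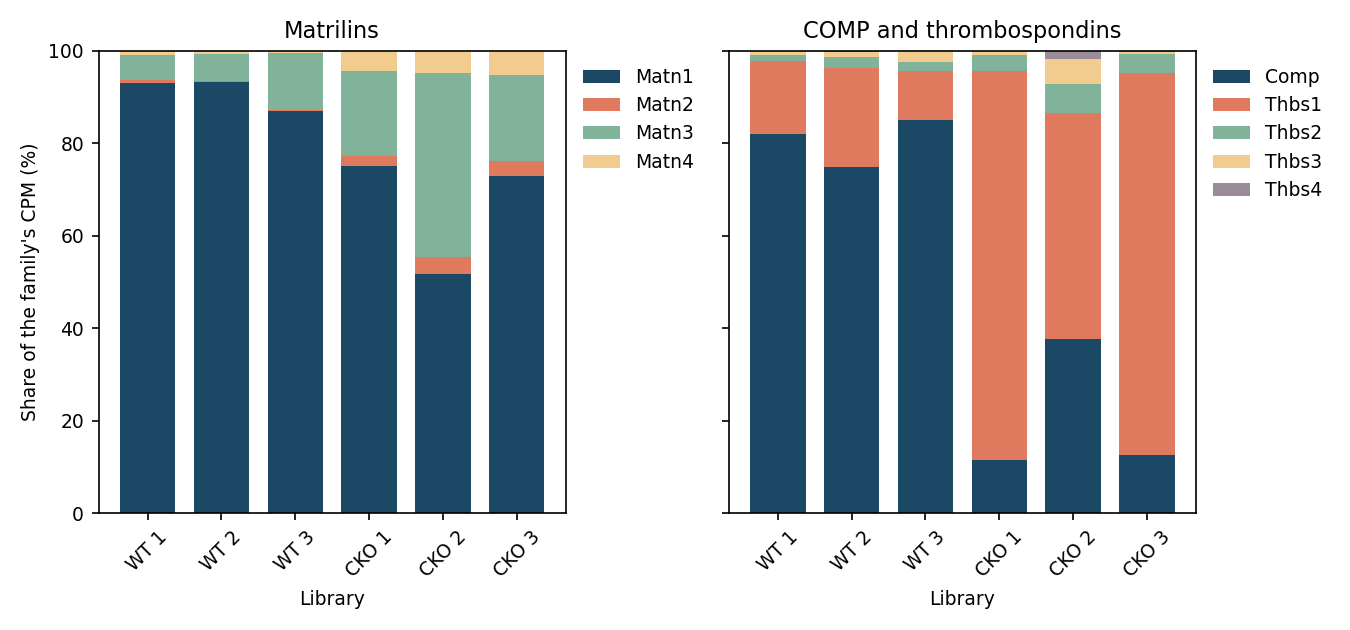
Share of each gene in the summed CPM of its family, in percent, as stacked bars for the 6 libraries, with the matrilins on the left and COMP with the thrombospondins on the right. *Comp* takes 74.8% to 84.9% in WT, and *Thbs1* takes the largest share of CPM in all 3 CKO libraries, though per kilobase of exon *Comp* is above it in CKO 2.

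The genes whose levels followed each member most closely were found by the root mean square difference of centred log2(CPM + 1) over the 6 libraries, among 6827 genes. Nearest to *Matn1* were *Ucma* (0.363), a secreted protein of the upper growth plate, *Comp* (0.402) and *Cnmd* (0.549), the vessel growth inhibitor chondromodulin. Nearest to *Comp* were *Pycr1* (0.271), an enzyme of proline synthesis, *Ucma* (0.271) and *Cnmd* (0.313). For *Matn3* they were *Scrg1* (0.154), a gene of differentiating chondrocytes, *1700025G04Rik* (0.237) and *Dclk1* (0.272). *Scrg1* was at 472, 451 and 1664 CPM in WT against 196, 303 and 208 CPM in CKO, with the same high WT 3 and CKO 2 as *Matn3*.

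For *Thbs1* the nearest genes were *Thbd* (0.136), the receptor thrombomodulin, *Dab2* (0.166), an endocytic adaptor, and *Bglap2* (0.204), an osteocalcin gene. *Bglap2* was at 50.7, 69.0 and 30.4 CPM in WT against 289, 35.4 and 257 CPM in CKO. *Thbd* was at 58.7, 55.5 and 42.2 CPM in WT against 222, 37.5 and 191 CPM in CKO, so that all 3 were high in CKO 1 and CKO 3 only. Nearest to the members of lower level were *Caprin1*, *Enoph1* and *Cnp* for *Matn2*, *Tef*, *Slc41a1* and *Sugct* for *Matn4*, *Chd6*, *Tulp3* and *Pja2* for *Thbs2*, and *Adamts10*, *Minpp1* and *Sparcl1* for *Thbs3*. *Matn2* had 24 to 44 reads per library, a counting error of 15.1% to 20.4%, and *Thbs3* had 9 to 56 reads. Matches to genes counted this thinly may follow counting noise. *Thbs4* was below the minimum of 10 CPM.

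**Figure D4:**
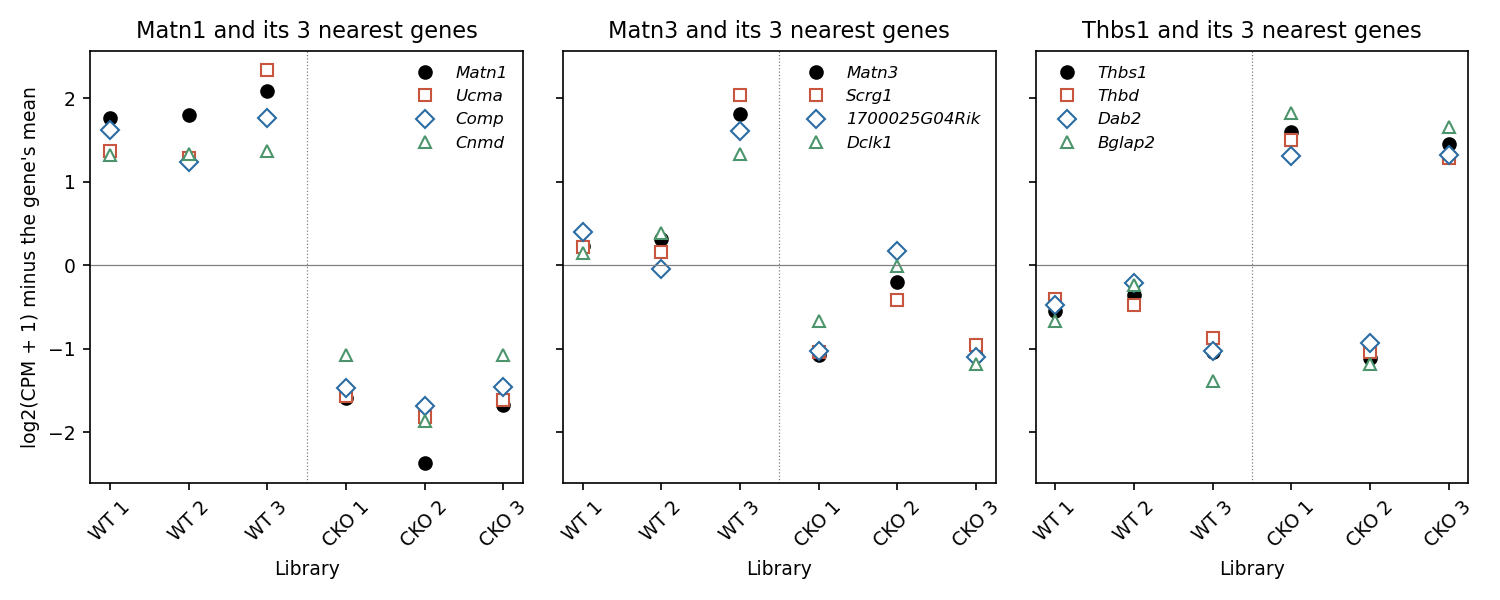
log2(CPM + 1) minus each gene's own mean for *Matn1*, *Matn3* and *Thbs1* (filled circles) and the 3 genes nearest to each (open symbols), in the 6 libraries. The *Matn1* panel has 2 levels by genotype, the *Matn3* panel is highest in WT 3, and the *Thbs1* panel is high in CKO 1 and CKO 3 only.

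Many genes for proteins that matrilins and COMP bind in the matrix fell in CKO. Of 16 matrix partners 8 were lower and 1 was higher (limma adjusted p under 0.05), where 2.6% and 3.18% of all tested genes were. The median log2 difference of the partners was -1.15, against 0.013 over all genes. The 3 chains of collagen IX, which sits on the surface of collagen II fibrils, fell, with log2 differences of -2.50 (*Col9a1*), -2.57 (*Col9a2*) and -3.08 (*Col9a3*). The fibril collagens *Col2a1*, *Col11a1* and *Col11a2* had log2 differences of -1.03, -1.27 and -2.90, the proteoglycan *Acan* of -1.50 and the small proteoglycan *Dcn* of -1.89. *Fn1*, the cell adhesion protein fibronectin, was the one that rose, with a log2 difference of 0.98 (limma adjusted p = 0.0267), and its call was lost without WT 1, WT 2, CKO 1 or CKO 3. *Hapln1* (-0.20) and *Bgn* (-0.21), which bind aggrecan complexes and matrilins, were not called, nor were the collagen VI chains, *Col12a1* and *Col14a1* (-1.88, limma adjusted p = 0.0658).

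Of 4 other genes of epiphyseal dysplasia in the table, the 3 collagen IX genes fell and the sulfate transporter *Slc26a2* had a log2 difference of -0.60 (limma adjusted p = 0.348), with a median of -2.53. *Cant1*, a nucleotidase gene left out of the list by a misspelt symbol and looked up after the other values were seen, had a log2 difference of -0.77 (limma adjusted p = 0.160). Of 7 chondrocyte markers, several of them also matrix partners, 5 fell with a median log2 difference of -1.50. Of all tested genes, 2.6% were called lower.

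None of 11 tested thrombospondin receptors passed the adjusted threshold in limma, and their median log2 difference was 0.38. The nearest to it were *Sdc1*, a syndecan (0.61, limma adjusted p = 0.0859), and *Itga5*, an integrin chain (0.45, limma adjusted p = 0.178), whose groups did not overlap. *Cd47*, the receptor of thrombospondin 1 on many cells, was at 66.7, 50.3 and 55.8 CPM in WT against 61.9, 92.4 and 65.0 CPM in CKO. Of 7 proteases that cut these proteins or their partners, 0 were called by limma, with a median of 0.035. *Mmp13* (1.81, limma adjusted p = 0.118) and *Adamts7*, a protease of COMP (-1.67, limma adjusted p = 0.106, 12 reads in WT and 1 in CKO), were beyond the study's criterion. Of 9 chondrocyte regulators 0 were called, with a median of -0.10, and *Sox9*, the main transcription factor of chondrocytes, had a log2 difference of -0.83 (limma adjusted p = 0.137). With 5.78% of all tested genes called either way, 0 in lists of this size is near the share over all genes. At an unadjusted p under 0.05 in limma, 2 receptors were higher, 1 protease was higher and 1 lower, and 2 regulators were lower. That level was reached by at least 2537 of 12155 tested genes. At an adjusted p under 0.05 edgeR and DESeq2 called 0 in each of these lists. Without CKO 2, limma called 1 receptor lower, 1 protease higher and 2 regulators lower. Over all genes that fit called 692 higher and 606 lower, against 387 and 316 with all libraries.

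**Figure D5:**
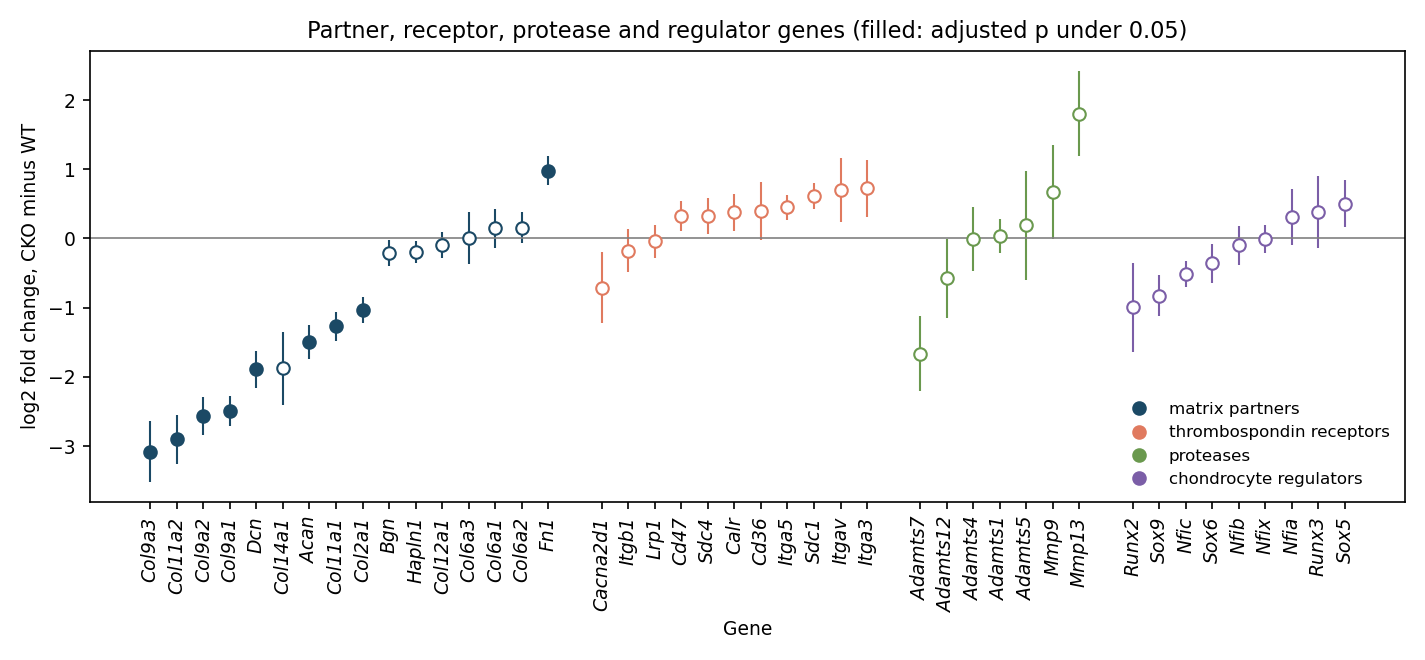
Log2 difference of CKO minus WT, with its standard error, for the tested genes of 4 lists, filled where the adjusted p was under 0.05. Among the matrix partners 8 filled points lie below 0 and *Fn1* above it, and no point is filled in the other 3 lists.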

How the data were processed

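Libraries were made with the VAHTS stranded mRNA kit from TRIzol RNA. The submitters' processing notes name cutadapt 2.5, HISAT2 and featureCounts 1.6.3; genome build, annotation and strand setting are not given in the sources used here. The deposited table holds CPM, counts that the authors scaled to each library's total. All values were whole multiples of 1 read (tolerance 0.001), so reads were recovered. Genes whose mean reached 1 CPM were tested on log2(CPM + 1) with limma 3.58.1 (R 4.3.3; mean-variance trend, Benjamini-Hochberg over 12155 genes). edgeR 4.0.16 and DESeq2 1.42.0 on the recovered reads, a pseudocount of 0.1, no filter, scaling by TMM factors, a replicate block and leaving out each library were alternatives. Shares used exact permutation tests. Coordinates and exon lengths came from GENCODE M21 (GRCm38), matched by gene ID. No member had a near-identical copy (90% over 300 bases). Named genes were the members, the 3 nearest to each of at least 10 CPM, *Hnrnpk* and listed genes. The members and all lists were chosen with earlier results of these data known. Scripts were tested on simulated data.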

Additional observations from a re-analysis of the deposited data

How the results depend on the processing

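*Matn1* and *Comp* were called lower in all 13 other fits, with log2 differences of -3.91 to -3.52 and -3.23 to -2.97. *Matn3* passed in 6 of 13 (-1.86 to -1.06, adjusted p from 2.08e-04 to 0.156) and missed with a pseudocount of 0.1 (adjusted p = 0.0593). *Thbs1* passed in 1 of 13. No member changed direction. Genes higher and lower in CKO, 387 and 316, came to 644 and 620 by the study's criterion, 225 and 160 with the replicate block, and 123 to 692 and 79 to 606 with 1 library left out. Members higher were 1 by the criterion and 0 to 1 with 1 library left out; the cause was not tested. Under the block *Matn3* had an adjusted p of 0.0668 in limma, and 1 protease, *Mmp13*, became higher (adjusted p = 0.0472). Libraries of the same number deviated with correlations of 0.038, -0.131 and -0.103, against -0.120 to 0.164 for the other pairs. No shared effect of the number was visible, but 3 libraries per group cannot show whether those of the same number were littermates. Chosen after seeing the data, a fit without both WT 3 and CKO 2 (2 against 2) called 1312 genes higher and 1098 lower, 2 members higher and 4 lower, adding *Thbs1* (1.98), *Thbs2* (0.87) and *Matn4* (-0.62). Those libraries were dropped because they lay far from their group, which narrows the spread, so its p-values are too small to count as support. At this depth *Thbs4* could not be compared.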
